A study of Mus musculus with 18 samples.

Results

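The stefin A cluster of mouse chromosome 16 was described here through 7 genes, *Stfa2l1*, *Gm5483*, *2010005H15Rik*, *Stfa1*, *BC100530*, *Stfa2* and *Stfa3*, picked by symbol out of 34896 genes in the expression table. The data came from cells sorted from the bone marrow of C57BL/6 mice, 6 to 12 weeks old: granulocyte-monocyte progenitors (GMPs, lin- cKIT+ SCA- CD16/32+ CD34+), neutrophil precursors (preNeu, Mac-1+ Gr-1+ cKIThi CXCR4med) and mature neutrophils (matNeu, Siglec- CXCR2+). RNA-seq covered the 3 cell types with 3 wild type libraries each and was deposited as TPM, a level corrected for transcript length and library size. ChIP-seq peak lists, with 1 library each, were used for CHD4, the ATPase of the NuRD chromatin remodeling complex, in GMPs from wild type (WT) and Gfi1-/- mice, and for the histone mark H3K4me2 in wild type GMP, preNeu and matNeu cells. An ATAC-seq list of open chromatin, named for preNeu cells, came from wild type mice as well, and the list named for matNeu cells was identical to it. Each comparison of RNA-seq groups rests on wild type cells only, so that GFI1 was present in all of them, and each comparison of peak lists has no replicate check. For RNA-seq, marrow from tibiae, femora and humeri was pooled ahead of the sort.

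Stefins, the type 1 cystatins, are small proteins without a secretion signal that sit in the cytosol and block papain-like cysteine proteases by plugging their active site cleft. Their targets include cathepsins B, H, L and S, which work in lysosomes. Humans carry 1 stefin A gene, *CSTA*, known from skin and leukocytes, whereas the mouse carries a cluster of copies, and stefin B (*Cstb*) is encoded elsewhere. Stefin A transcripts are known in neutrophils and in keratinocytes.

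The cluster ran over 298.6 kb, from the first base of *Stfa2l1* at chr16:36156811 to the last base of *Stfa3* at position 36455392 (GRCm38, GENCODE M21). The 4 members at the lower end, *Stfa2l1* (36156811 to 36161953), *Gm5483* (36184212 to 36188111), *2010005H15Rik* (36221468 to 36257444) and *Stfa1* (36276951 to 36285373), were on the plus strand. *BC100530* (36359382 to 36367748), *Stfa2* (36403992 to 36408457) and *Stfa3* (36450537 to 36455392) were on the minus strand, so that members at the lower and the higher end pointed towards each other. With 10 kb on either side, the interval held another 22 annotated genes, of which 12 were small nuclear RNA genes. Such a gene lay on the opposite strand 59 to 65 bp past the end of 5 members and 106 bp past the end of *Stfa2*. Only 5 of the 22 were in the expression table.

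The 100 bases upstream of the start of each member are shown because they separate the members into 6 copies with one kind of promoter and 1 member without it. They were taken from RefSeq starts on GRCm38.p6, which all 7 members matched, and capitals mark a run like a TATA box, TTTAAA. For *Stfa1*, *BC100530*, *Stfa2* and *2010005H15Rik* the RefSeq start lay inside the gene model of GENCODE.
Stfa2l1 (chr16:36156711-36156810, plus strand): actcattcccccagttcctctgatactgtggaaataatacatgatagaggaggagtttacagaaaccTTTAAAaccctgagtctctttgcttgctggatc
Gm5483 (chr16:36184112-36184211, plus strand): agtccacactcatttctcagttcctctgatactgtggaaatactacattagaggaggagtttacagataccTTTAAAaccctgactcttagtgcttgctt
2010005H15Rik (chr16:36221462-36221561, plus strand): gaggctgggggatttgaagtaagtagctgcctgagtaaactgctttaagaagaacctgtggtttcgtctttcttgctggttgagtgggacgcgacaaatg
Stfa1 (chr16:36277048-36277147, plus strand): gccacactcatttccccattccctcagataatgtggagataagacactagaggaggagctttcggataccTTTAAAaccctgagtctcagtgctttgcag
BC100530 (chr16:36367571-36367670, minus strand): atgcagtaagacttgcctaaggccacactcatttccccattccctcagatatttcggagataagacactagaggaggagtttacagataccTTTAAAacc
Stfa2 (chr16:36408364-36408463, minus strand): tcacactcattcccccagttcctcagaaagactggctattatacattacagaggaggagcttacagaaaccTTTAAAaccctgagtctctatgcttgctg
Stfa3 (chr16:36455393-36455492, minus strand): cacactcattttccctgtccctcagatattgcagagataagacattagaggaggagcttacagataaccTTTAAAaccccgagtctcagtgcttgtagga

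TTTAAA stood 29 to 33 bases upstream of the start in *Stfa2l1*, *Gm5483*, *Stfa1*, *Stfa2* and *Stfa3*, and 9 bases upstream in *BC100530*. It was not found in the 250 bases upstream of *2010005H15Rik*. On either strand, these letters occurred in that window in 12.1% of 27025 promoters, and 1.44% held them 20 to 40 bases upstream of the start. The same 6 members held AGAGGAGGAG, a run of purines, just ahead of the TATA-like run, which 0.777% of all promoters held anywhere in the window. TTTAAA was searched after the sequences had been read. The purine run was picked as the longest other run shared by the 6 stretches that hold TTTAAA. Its presence in all 6 was thus fixed in advance, and its share over all promoters is a description. CCAAT was present in 6 members, *Gm5483* being without it, against 34.5% of all promoters. It lay on the strand opposite to the gene, 219 to 244 bases upstream in *Stfa2l1*, *Stfa1*, *BC100530*, *Stfa2* and *Stfa3*. In *2010005H15Rik* it lay 194 and 149 bases upstream. Promoters that are copies of one another are not separate cases, so that such counts are a description. TTGCNNAA, a form of the C/EBP site, was found in *Stfa1* and *BC100530* (9.55% of all promoters). AAATCA, the core of the GFI1 site, was found in 0 members and in 12.7% of all promoters, and GAGGAAGT, a form of the SPI1 (PU.1) site, in 0 members and in 2.44% of promoters. The motifs did not overlap one another in these members. Over the nearest 200 bases, the 6 promoters were 66.4% to 88.2% identical in pairs, with *Stfa2l1* and *Stfa2* the closest pair, whereas the promoter of *2010005H15Rik* was 41.6% to 46.0% identical to the others.

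The likeness of the copies bears on every expression value below. Of the 31-base words of the longest coding transcript, 50.4% in *Stfa1*, 55.2% in *BC100530*, 47.9% in *Gm5483*, 41.6% in *Stfa2l1*, 33.3% in *Stfa2* and 32.0% in *2010005H15Rik* also occurred in transcripts of other genes. In *Stfa3* this share was 0.0%, so that its value is the one that no other gene could add to by such words. The sharing ran in pairs. *Stfa1* and *BC100530* were 96.8% identical over their whole transcripts and shared 44.6% of the words of *Stfa1*. *Gm5483* shared 45.3% of its words with *2010005H15Rik*, and *Stfa2l1* shared 29.3% with *Stfa2*. Reads from the shared stretches can be divided between the members of a pair in more than 1 way, and the levels of single copies are uncertain to that extent. The part of shared reads in the levels was not tested.

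**Figure D1:**
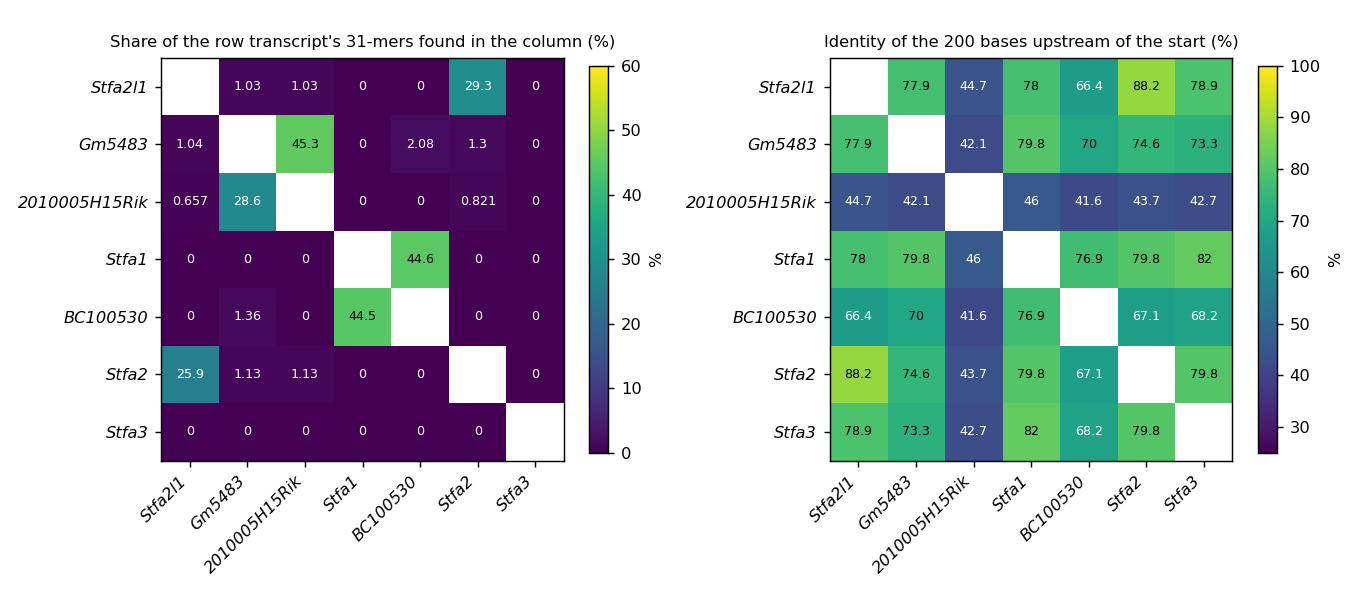
Likeness of the 7 members in pairs. The left map gives the percent of the 31-base words of the row's transcript that occur in the column's transcript, and the right map the percent identity of the 200 bases upstream of the start. The words are shared mainly within *Stfa1* and *BC100530*, *Gm5483* and *2010005H15Rik*, and *Stfa2l1* and *Stfa2*, while the promoter of *2010005H15Rik* stands apart at 41.6% to 46.0%.

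The labels give the cell type in both the title and a separate tag, which differ for 13 of 18 samples, among them 9 of 9 RNA-seq libraries, and the titles were followed. *Cd34*, a surface protein of progenitors, was at 470 ± 39 TPM (SD, n = 3) in the libraries titled GMP and at 2.21 ± 1.02 and 1.92 ± 0.40 TPM in those titled preNeu and matNeu. *Ngp*, a granule protein of neutrophil precursors, was highest in preNeu, and *Cxcr2*, the chemokine receptor of mature neutrophils, in matNeu (3468 ± 478 TPM), so that the markers followed the titles. The keratinocyte keratins *Krt5* and *Krt14* were listed at 0 in all 9 libraries. B cell genes moved in the same direction as the cluster. *Cd79a*, part of the B cell receptor, was at 0.207, 0.603 and 0 TPM in GMPs, at 5.68, 8.58 and 6.69 in preNeu and at 16.2, 18.6 and 33.1 in matNeu. *Ms4a1*, the gene of CD20, was at 0.523, 0.421 and 0.523 TPM in GMPs, at 2.13, 2.22 and 2.84 in preNeu and at 8.33, 11.5 and 16 in matNeu. Both were called higher in preNeu than in GMPs and in matNeu than in preNeu, and their part in the members' results was not tested. The T cell gene *Cd3d* was also higher in matNeu, by 1.91 ± 0.36 than in preNeu (adjusted p = 0.000775) and by 1.45 ± 0.36 than in GMPs (adjusted p = 0.00336, limma for both). *Cd3d* was not called between preNeu and GMPs, and *Cd3e*, the other T cell marker, did not pass the filter. In matNeu, markers of T cells summed to 6.65 to 14.1 TPM, of monocytes and macrophages to 10.3 to 13.6, of erythroid cells to 4.82 to 12.1, of basophils and mast cells to 1.009 to 6.39, of megakaryocytes to 2.90 to 4.58 and of eosinophils to 0 to 0.405. RNA-seq libraries had no stated depth, and TPM keeps none.

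The cluster was nearly silent in GMPs, low in preNeu and clearly present in matNeu. The summed level of the 7 members was 0, 0.312 and 0 TPM in the GMP libraries. It was 5.70, 6.30 and 2.41 TPM in preNeu and 464, 264 and 185 TPM in matNeu, with no overlap between any of the cell types. On the log2(TPM + 1) scale, the sum was 5.69 higher in matNeu than in preNeu and 2.33 higher in preNeu than in GMPs. In bulk samples, fewer cells that express a gene and less RNA per cell cannot be told apart. In matNeu, the members together made up 0.0464%, 0.0264% and 0.0185% of the library.

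*Gm5483*, the gene for a stefin A-like copy, had the highest level. It was listed at 0 in all 3 GMP and all 3 preNeu libraries and at 247, 142 and 86.3 TPM in matNeu. The fitted difference between matNeu and preNeu was 7.19 ± 0.35 (SE) on the log2(TPM + 1) scale (adjusted p = 2.8e-08, limma). By its mean of 158 TPM it ranked 1008 among the 34896 genes in matNeu. *Gm5483* passed the filter of at least 1 TPM in at least 3 libraries through matNeu alone. A difference in this direction was thus bound to appear, and its p-value is a description. The same holds for the matNeu differences of *Stfa2l1*, *BC100530*, *Stfa2* and *2010005H15Rik*.

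*Stfa2l1*, named as a relative of *Stfa2*, came next. It was at 0 in GMPs, at 0, 1.97 and 0 TPM in preNeu and at 146, 82.2 and 67.4 TPM in matNeu. The lowest matNeu library was far above the highest preNeu library, and the fitted difference was 6.03 ± 0.44 (adjusted p = 6.13e-07, limma). *Gm5483* and *Stfa2l1* together gave 84.7%, 84.7% and 83.0% of the members' sum in the 3 matNeu libraries, so that these members held most of the cluster's signal.

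*Stfa1*, which encodes stefin A1, was the one member called between GMPs and preNeu in the main fit. It was at 0 in all 3 GMP libraries, at 2.93, 3.22 and 1.42 TPM in preNeu and at 35.3, 22.1 and 16.9 TPM in matNeu, so that no library of one cell type overlapped with another cell type. The difference was 1.78 ± 0.33 between preNeu and GMPs (adjusted p = 0.000845, limma) and 2.85 ± 0.33 between matNeu and preNeu (adjusted p = 2.01e-05, limma).

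*BC100530*, the near-identical partner of *Stfa1*, had a lower level with the same order of cell types. An antisense RNA gene, *Gm15845*, overlaps its start, and whether reads were counted by strand was not given in the sources used here. *BC100530* was at 0 in GMPs, at 0.506, 0.445 and 0.986 TPM in preNeu and at 17.7, 5.31 and 5.80 TPM in matNeu. The fit covered all cell types at once and gave each comparison the same standard error, 0.39, which holds the spread of the matNeu libraries too. The difference between preNeu and GMPs did not pass the test (0.70 ± 0.39, adjusted p = 0.15, limma), although every preNeu library was above every GMP library. It was called with matNeu replicate 1 left out (adjusted p = 0.0376), with a pseudocount of 0.1 (adjusted p = 0.00329) and in a fit of preNeu and GMP libraries alone (adjusted p = 0.0493, limma for all), in a range from 0.00329 to 0.321 over all alternatives.

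*Stfa2*, a stefin A whose transcript shares words with *Stfa2l1*, was at 0 in all GMP and preNeu libraries and at 12.6, 9.84 and 4.70 TPM in matNeu. *2010005H15Rik*, the member with the other promoter, was at 0.312 TPM in 1 GMP library, at 0 in the other GMP libraries and in preNeu, and at 2.99, 3.23 and 1.77 TPM in matNeu. Both were higher in matNeu than in preNeu, by 3.24 ± 0.32 for *Stfa2* (adjusted p = 6.56e-06) and by 1.85 ± 0.26 for *2010005H15Rik* (adjusted p = 0.000102, limma for both).

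*Stfa3* differed from its neighbours in that no comparison called it. It was at 0 in GMPs, at 2.26, 0.662 and 0 TPM in preNeu and at 2.40, 0 and 2.31 TPM in matNeu, and the preNeu and matNeu libraries overlapped. The difference between matNeu and preNeu was 0.35 ± 0.52 (adjusted p = 0.583) and that between matNeu and GMPs 1.16 ± 0.52 (adjusted p = 0.0623, limma for both). The latter passed without matNeu replicate 2, the library at 0, with 1.75 and an adjusted p of 0.00539, and without preNeu replicate 1 with an adjusted p of 0.0452, in a range from 0.00539 to 0.197 over all alternatives.

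**Figure D2:**
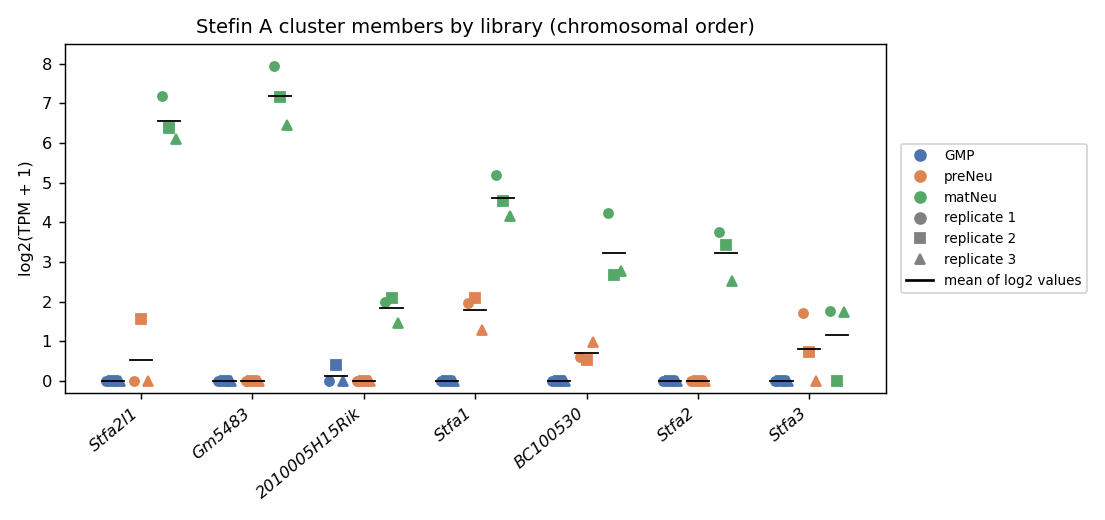
Level of each member in every RNA-seq library as log2(TPM + 1), in chromosomal order from left to right, with the cell types by colour, the replicates by shape and the mean of the log2 values as a line. The matNeu libraries lie above all others in 6 members, and in *Stfa3* they overlap with preNeu.

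Between matNeu and GMPs, 6 of 7 members were called higher and 0 lower, beside 22.8% of 13061 tested genes called higher and 54.1% called lower. Between matNeu and preNeu, 6 were called higher and 0 lower, beside 22.9% and 39.8% of tested genes. Between preNeu and GMPs, 1 was called higher and 0 lower, beside 14.7% and 44.3%. The median difference of the members was 3.24, 2.85 and 0.52 in this order, and that of all tested genes was -0.92, -0.32 and -0.52, so that relative to the other genes the members lay higher still. Median-of-ratios scaling moved the medians of all tested genes to -0.17, -0.06 and -0.08 and the counts of members called stayed at 6, 6 and 1. All 7 members passed the filter of at least 1 TPM in at least 3 libraries, but only 1, *Stfa1*, would have passed it without the matNeu libraries. Members that pass through matNeu alone had to differ, and the counts and these members' p-values for matNeu are a description. The preNeu against GMP count was 2 with matNeu replicate 1 left out, because *BC100530* was then called, and the matNeu against GMP count was 7 without preNeu replicate 1 or without matNeu replicate 2, because *Stfa3* was then called.

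**Figure D3:**
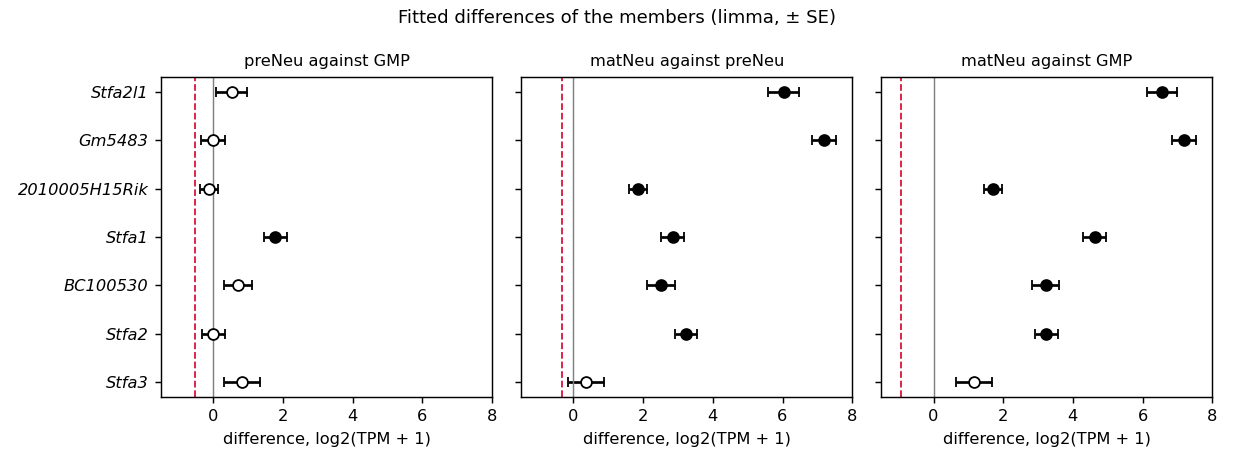
Fitted difference of each member on the log2(TPM + 1) scale with its standard error, for preNeu against GMP, matNeu against preNeu and matNeu against GMP. Filled points passed the test at an adjusted p of 0.05 and open points did not, and the dashed line is the median of all tested genes, at -0.52, -0.32 and -0.92.

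The levels of the members followed a wide order within matNeu. *Gm5483* was above *Stfa2l1* in 3 of 3 libraries, although the ranges of the pair overlapped, by 0.63 ± 0.24 (SD, n = 3) on the log2(TPM + 1) scale. *Stfa2l1* was above *Stfa1* by 1.93 ± 0.08 with no overlap. *Stfa1* was above *BC100530* by 1.41 ± 0.46 in 3 of 3 libraries, with a slight overlap of ranges. *BC100530* and *Stfa2* did not differ beyond their spread (-0.02 ± 0.67), and *2010005H15Rik* and *Stfa3* did not either (0.68 ± 1.23). *Stfa2* was above *2010005H15Rik* by 1.39 ± 0.36.

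The members' sum differed by 2.5 times between the highest and the lowest matNeu library, which 8.13% of 7404 genes with a mean of at least 5 TPM reached. The median of these genes was 1.39 times. Replicate 1 was the highest matNeu library for 6 of 7 members, as it was for 27.0% of those genes, and *2010005H15Rik* was highest in replicate 2. The summed matNeu markers (*Cxcr2*, *Mmp8*, *Retnlg* and *Il1b*) were 23300, 23160 and 19160 TPM in replicates 1, 2 and 3. The single markers did not share this order. *Retnlg* fell (12530, 10881 and 6505 TPM) and *Cxcr2* rose (3027, 3400 and 3976). *Mmp8* was highest in replicate 2 (5831, 7533 and 6443) and *Il1b* in replicate 3 (1908, 1342 and 2237). *Cd79a*, at 16.2, 18.6 and 33.1 TPM, and *Ms4a1*, at 8.33, 11.5 and 16 TPM, had the reverse order to the members' sum. The part of these markers in the members' spread was not tested.

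Copies outside the 7 had low levels, of at most 4.57 TPM in any library. *Gm5416*, another stefin A-like gene between *Gm5483* and *2010005H15Rik*, was at 1.50, 0 and 1.94 TPM in matNeu and at 0 elsewhere. *BC117090*, which lies between *Stfa1* and *BC100530*, was at 2.17, 4.57 and 0 TPM in matNeu and at 0 elsewhere. *Csta1*, a neighbour of the cluster, reached 0.130 TPM in 1 GMP library and was at 0 in the others. *Gm10913*, *Gm10813* and the row named *Gm4758*, whose identifier belongs to *Gm7260* in GENCODE M21, were at 0 in all 9 libraries.

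Of 15 cystatin genes outside the 7, 3 passed the filter. *Cstb* and *Cst3* were lowest in preNeu and highest in matNeu, and *Cst7* fell at both steps. *Cstb*, the cytosolic stefin B, was at 28.7 to 32.9 TPM in the GMP libraries, at 7.96 to 15.1 in those of preNeu and at 37.9 to 66.0 in those of matNeu. It fell by 1.56 ± 0.27 from GMPs to preNeu (adjusted p = 0.000525) and was higher in matNeu than in preNeu by 2.20 ± 0.27 (adjusted p = 3.21e-05, limma for both). Between matNeu and GMPs *Cstb* was not called (0.63 ± 0.27, adjusted p = 0.0502, limma). *Cst3*, the secreted cystatin C, lay between 245 and 325 TPM in GMPs, between 175 and 237 in preNeu and between 505 and 716 in matNeu, and was higher in matNeu than in preNeu by 1.54 ± 0.18 (adjusted p = 1.95e-05, limma). *Cst3* fell by 0.56 ± 0.18 from GMPs to preNeu (adjusted p = 0.0183, limma), a call that was lost under median-of-ratios scaling (-0.047, adjusted p = 0.869) and without GMP replicate 2 or 3 or preNeu replicate 2 or 3 (adjusted p = 0.0576 to 0.0692). *Cst7*, cystatin F, which controls cathepsins inside granules and lysosomes, was highest in GMPs. GMPs had 366 to 415 TPM of it, preNeu 79.3 to 80.5 and matNeu 0 to 1.94. In matNeu, the sum of the stefin A members was thus at least 185 TPM beside at most 66.0 for *Cstb*, whereas in GMPs *Cstb* was at no less than 28.7 TPM beside at most 0.312 for the members.

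The cysteine cathepsins, of which B, H, L and S were named above as targets of stefins, did not share one direction. Of 10 listed, 8 passed the filter. Between preNeu and GMPs 0 were called higher and 6 lower, between matNeu and preNeu 2 higher and 1 lower, and between matNeu and GMPs 2 higher and 5 lower, with medians of -1.59, -0.03 and -1.11. Of all tested genes, 14.7%, 22.9% and 22.8% were called higher and 44.3%, 39.8% and 54.1% lower in this order, so that the counts between matNeu and GMPs were near those of all genes. *Ctsl* (cathepsin L) lay between 28.0 and 30.7 TPM in GMPs, between 6.19 and 11.3 in preNeu and between 42 and 51.0 in matNeu. *Ctss* (cathepsin S) was at 64.7 to 104, 22 to 32.1 and 110 to 121 TPM in the same order. These 2 were the cathepsins called higher in matNeu than in preNeu, by 2.38 ± 0.21 (adjusted p = 2.93e-06) for *Ctsl* and 1.99 ± 0.20 (adjusted p = 8.7e-06, limma for both) for *Ctss*.

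*Ctsb* (cathepsin B) lay between 525 and 556 TPM in GMPs, between 605 and 840 in preNeu and between 253 and 389 in matNeu, and fell by 1.19 ± 0.17 from preNeu to matNeu (adjusted p = 9.82e-05, limma). Between matNeu and GMPs, where it was called lower, it lay 0.070 higher under median-of-ratios scaling. *Ctsh* (cathepsin H) was called in no comparison, except as 0.84 higher in matNeu than in GMPs under that scaling (adjusted p = 0.000343, limma), and lay between 164 and 247 TPM in all libraries. *Ctsc* (cathepsin C), which activates granule serine proteases, fell by 3.11 ± 0.22 from GMPs to preNeu (adjusted p = 1.39e-06, limma) and was at 18.6 to 25.4 TPM in matNeu. *Ctsz* (cathepsin Z) was at 767 to 944 TPM in GMPs and at 205 to 266 TPM in matNeu. The serine proteases of primary granules, which stefins do not inhibit, were given for contrast. The sum of *Elane*, *Prtn3* and *Ctsg* was between 11520 and 14580 TPM in GMPs, between 3203 and 4205 in preNeu and between 2.01 and 18.8 in matNeu.

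**Figure D4:**
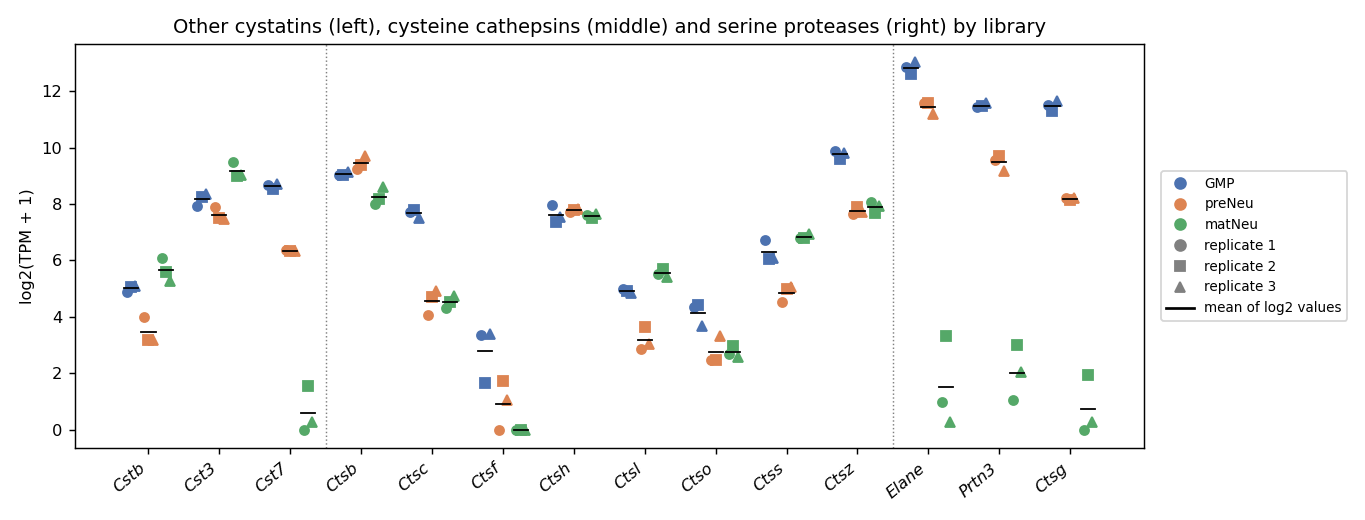
Level of the other cystatins, the cysteine cathepsins and the granule serine proteases that passed the filter in every library, as log2(TPM + 1), with cell types by colour and replicates by shape. *Cstb*, *Cst3*, *Ctsl* and *Ctss* are highest in matNeu, whereas *Cst7* and the serine proteases are near 0 there.

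The genes whose pattern was most like the summed members, by Pearson's r of log2(TPM + 1) over the 9 libraries, were *Slc22a20* (0.995), *Msrb1* (0.993), *Asprv1* (0.993), *Tfeb* (0.993) and *H2-K2* (0.993). Such values are common when libraries fall into 3 cell types, and 522 of 13054 genes (4.0%) had an r of at least 0.95. *Asprv1*, the gene of a retroviral-like aspartic protease, went from 0 to 0.655 TPM in GMPs over 5.83 to 9.95 in preNeu to 816 to 866 in matNeu. *Tfeb*, a transcription factor of lysosomal genes, went from 4.24 to 7.30 over 12.5 to 19.5 to 120 to 154 TPM.

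H3K4me2, a mark of promoters and enhancers in use or poised for it, was absent from the cluster in the GMP list and present in the lists of both later stages. In the interval with 10 kb on either side, 0 of 37643 GMP peaks, 8 of 49578 preNeu peaks and 10 of 44094 matNeu peaks were found. The peaks covered 6134 bp (1.93% of the interval) in preNeu and 16671 bp (5.23%) in matNeu, beside 3.59% and 2.95% of the genome. The GMP list covered less of the genome, 1.83%. Its median fold enrichment over background was also lower, at 2.89 beside 4.55 in preNeu and 3.78 in matNeu. Whether weak peaks of the cluster were missed in the GMP list was not tested. Cut into pieces of the length of the interval, 35.2% of the genome had no GMP peak. Of those pieces, 13% had a preNeu peak and 12.8% a matNeu peak, and 0.299% had 8 or more preNeu peaks and 0.133% had 10 or more matNeu peaks. Over all pieces, those with GMP peaks included, 30.9% had 8 or more preNeu peaks and 22.4% had 10 or more matNeu peaks. The counts themselves were thus common. The pieces were counted by peak midpoints, whereas the interval was counted by any overlap. The preNeu peak at 36465200 to 36466031 runs past the interval's end at 36465392, and its midpoint lies outside. The shares for 8 or more preNeu peaks therefore set unlike counts side by side. The 10 matNeu peaks have their midpoints inside.

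The peaks of the cluster were weak. Their fold enrichment over background was 2.46 to 3.69 in preNeu and 2.35 to 3.64 in matNeu, with medians of 2.95 and 2.61 beside 4.55 and 3.78 over the whole lists. The highest -log10 q was 4.28 in preNeu and 4.44 in matNeu, and 0 peaks remained in either list at a -log10 q of at least 5. Counts and promoter calls in the cluster therefore rest on weak peaks. Of the 8 preNeu peaks, 6 (75.0%) overlapped a matNeu peak, beside 78.4% of the whole preNeu list, and 6 of the 10 matNeu peaks (60%) overlapped a preNeu peak, beside 91.4%.

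Of the 4 matNeu peaks without a preNeu counterpart, 2 lay over the members with the highest expression. A peak of 4827 bp (36183467 to 36188293, fold 2.72) covered all of *Gm5483*, and 1 of 3259 bp (36157064 to 36160322, fold 3.20) covered much of *Stfa2l1*, including exons. The list's median length was 1136 bp. The others were 1 in *BC100530* (36366289 to 36366751) and 1 over *Gm7260* (36390981 to 36391896). In preNeu, neither *Gm5483* nor *Stfa2l1* had a peak in the gene, but both lists had peaks about 8 kb and 4 kb upstream of *Gm5483* (preNeu 36175704 to 36176596 and 36179649 to 36180741, matNeu 36175063 to 36176953 and 36179076 to 36180713).

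At promoters, taken as the 2 kb ahead of the start and the first 500 bp after it, H3K4me2 was found in 0 of 7 members in GMPs, beside 59.4% of 21938 protein-coding genes. It was found in 3 members in preNeu (*2010005H15Rik*, *BC100530* and *Stfa3*), beside 59.3%, and in 4 members in matNeu (*Stfa2l1*, *Gm5483*, *2010005H15Rik* and *Stfa3*), beside 56.9%. Among 379 other genes that were under 1 TPM in every GMP library and called higher in matNeu than in GMPs, the shares were 46.2%, 57.3% and 55.1%. With 7 genes, the counts in preNeu and matNeu are near these shares. *Stfa1* and *Stfa2* had no promoter peak in any list, although both were higher in matNeu. *Stfa3* had a peak over its start in preNeu (36454929 to 36456412, fold 3.69, the highest of that list in the cluster) and in matNeu (36454903 to 36457026, fold 2.84), yet it was at 0 to 2.40 TPM.

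The copies also limit the peaks. In the interval, 72% of the 50-base words, the length of a ChIP-seq read, occurred once in GRCm38, beside 94.5% and 97.4% in the 100 kb on the lower and the higher side. The share was 54.7% for the promoter of *Stfa1* and 49.9% for that of *BC100530*, whereas it was 96.8% for *Stfa3*, 88.6% for *Stfa2*, 90.1% for *Stfa2l1*, 85.8% for *Gm5483* and 64.6% for *2010005H15Rik*. The preNeu peak at 36267670 to 36267837 held 0.0% unique words. Read loss from repeated sequence was not tested as a cause of absent peaks.

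CHD4 had 1 site in the interval among 35790 in WT GMPs. It spanned 177 bp (36260778 to 36260954), between *2010005H15Rik*, 3.3 kb past its end, and *Stfa1*, 16 kb ahead of its start, in no annotated gene. Its fold enrichment was 5.00 with a -log10 q of 6.92, and 15.8% of the WT sites had a lower fold. A piece of the genome of this length held 4.18 CHD4 peaks on average and 47.2% of pieces held none. Of the 50-base words of the site, 52.0% occurred once in the genome. The nearest H3K4me2 peak was 6.7 kb away in preNeu, 27.9 kb in matNeu and 187.7 kb in GMPs. In that preNeu peak 0.0% of the 50-base words occurred once in the genome, and in that matNeu peak 35.8%.

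In Gfi1-/- GMPs, 0 of 7316 CHD4 sites lay in the interval, and the 1 site of WT GMPs was not among those overlapped there. Of all WT sites, 18.5% were overlapped by a site of Gfi1-/- GMPs, and of the 5450 WT sites with a fold between 4.55 and 5.5, 0.606% were. The lists are of unlike length, 35790 sites in WT and 7316 in Gfi1-/- GMPs, and the part of this in the shares was not tested. The paper counts far fewer CHD4 peaks in WT GMPs and reports that its sites with CHD4 only were largely kept without GFI1. The promoters of the members held 0 CHD4 sites in both genotypes, beside 8.58% of all promoters in WT and 1.65% in Gfi1-/- GMPs, and beside 17.2% in WT for the 379 other genes named above. The ATAC-seq list held 0 peaks in the interval and at 0 of 7 promoters, beside 35.8% of all promoters, and 39.2% of pieces of the genome of this length held none.

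**Figure D5:**
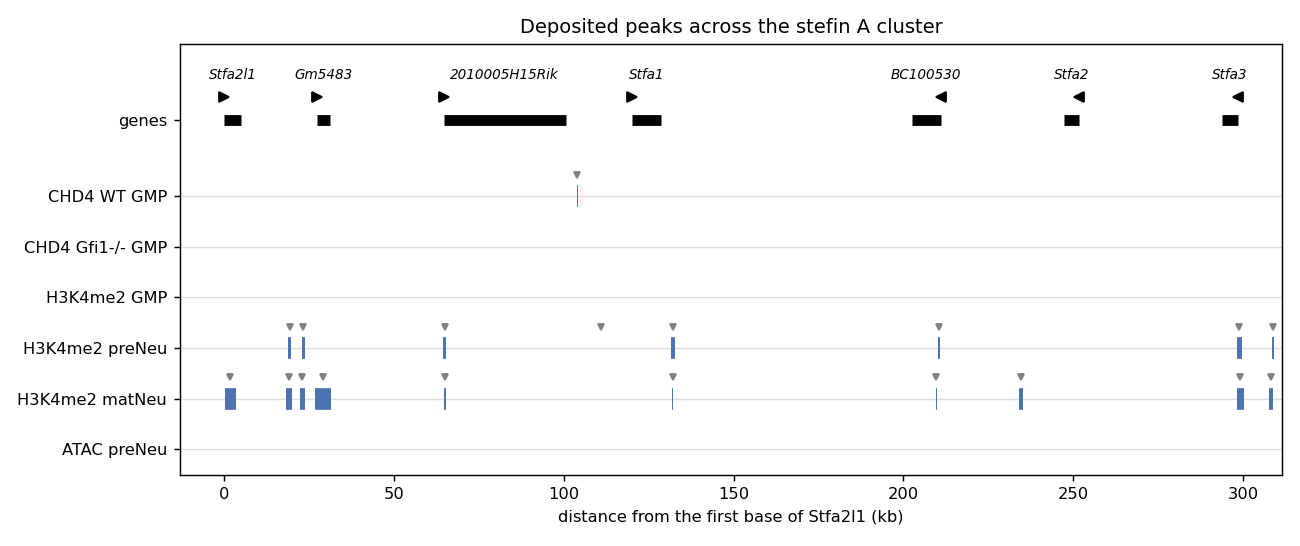
Deposited peaks across the cluster and 10 kb on either side, by distance in kb from the first base of *Stfa2l1*, with genes as black bars, their direction by arrowheads, CHD4 peaks in red and H3K4me2 peaks in blue, each topped by a small mark. The H3K4me2 rows hold 0, 8 and 10 peaks in GMP, preNeu and matNeu, and the single CHD4 site of WT GMPs lies between *2010005H15Rik* and *Stfa1*.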

How the data were processed

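Each of the 3 cell types had 3 RNA-seq libraries, and each ChIP-seq or ATAC-seq peak list came from 1 library. Samples were grouped by title. No label says that libraries came from separate animals, so that p-values measure the spread between these libraries. For RNA-seq, the deposited values are TPM, 1 per gene and library. The submitters' processing notes name kallisto 0.44.0, Trimmomatic 0.36, BWA 0.7.17, MACS2 2.1.0 and mm10, whereas the methods describe Tophat with HTSeq counting and DESeq. Which made the TPM values was not settled, and TPM keeps no depth, so no count test was run. The peak lists that the authors deposited give a fold enrichment, a linear ratio over background, and a -log10 q-value for each peak. All expression columns were mapped to samples (0 left out).

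A filter of 1 TPM in no fewer than 3 libraries left 13061 genes. Their log2(TPM + 1) values in all 9 libraries were fitted by cell type (limma 3.58.1, run under R 4.3.3), with a variance trend and Benjamini-Hochberg adjustment over all genes at 0.05. Differences on this scale understate the change of low genes. For groups of 3 and 3, the smallest p of an exact permutation test is 0.1. Peaks were set against GENCODE M21 with an overlap of at least 1 bp, and word counts, identities (global alignment) and motifs were computed in Python 3.11.15 with numpy 2.4.6, pandas 2.3.3 and numba 0.67.0, and plots with matplotlib 3.10.9. Fits and searches were tested on simulated data. The members, lists and tests were chosen with earlier results of these data known. Named were the 7 members, every gene annotated in the interval, fixed lists of cystatins, cathepsins and serine proteases, cell type markers (1 marker is not reported here), and the 5 genes most like the sum. Alternatives were a pseudocount of 0.1, other filters, median-of-ratios scaling, a replicate block, other fits, leaving out each library, a -log10 q of at least 5, other margins, promoters of 1 kb either side and an overlap of 50%. The GFI1 and H3K4me3 lists, whose chromosomes differ from those of GRCm38, were not used here.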

Additional observations from a re-analysis of the deposited data

How the results depend on the processing

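Between matNeu and preNeu 6 members were called under every alternative that kept all 7 in the test, and between matNeu and GMPs 6 were, or 6 to 7 when single libraries were left out. With at least 5 TPM required, 4 of the 4 members left were called in both. Between preNeu and GMPs, where 1 member was called, 2 were called with a pseudocount of 0.1 and in a fit of the compared cell types alone, and 1 to 2 when single libraries were left out. With the replicate block, 1, 6 and 6 members were called in the comparisons of preNeu with GMPs, matNeu with preNeu and matNeu with GMPs, and the block changed no call of a member. The replicate numbers gave no pairing, since deviations of same-numbered libraries correlated at -0.04 to 0.12, with 1 of 9 pairs over 0.1. With a pseudocount of 0.1 the summed members differed by 4.82 between preNeu and GMPs and by 10.79 between matNeu and GMPs. At a -log10 q of at least 5, H3K4me2 peaks across the cluster and promoters with such a peak were 0 in preNeu and 0 in matNeu. The signs of some cathepsin differences and that of *Stfa3* turned, and the cause was not tested. Under median-of-ratios scaling, *Ctsc* (0.31), *Ctsh* (0.17) and *Ctso* (0.31) were higher in matNeu than in preNeu, and *Ctsb* (0.070, where it had been called lower at -0.81) and *Ctsh* (0.84) higher in matNeu than in GMPs. When single libraries were left out, the difference between matNeu and preNeu was -0.054 to 0.93 for *Stfa3*, -0.29 to 0.13 for *Ctsc* and -0.16 to 0.27 for *Ctso*, and that between matNeu and GMPs -0.17 to 0.13 for *Ctsh*. TPM values and peak lists keep no depth, so the depth behind a value of 0 is unknown.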
